A study of Mus musculus with 10 samples.

Results

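T cell receptor variable (V) genes were followed in RNA from mouse ovarian cancer tumours. The members were all genes of the table whose name starts with Trav, Trbv, Trdv or Trgv, which gave 131 of 32830 genes: 102 Trav, 24 Trbv, 4 Trdv and 1 Trgv. Each encodes the V segment of a receptor chain, in the order of the names alpha, beta, delta and gamma. All 131 were matched by name to overlapping genes of the GENCODE M21 annotation, which marks 6 of them as pseudogenes. GENCODE M21 holds 170 V genes with these name starts, and the other 39 were not analysed here. The table names other gamma V genes with another start (Tcrg-V3 to Tcrg-V7); these are no members and are given beside Trgv2 only.

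The tumours came from mice labelled wild type and carrying an ovarian cancer model, whose cell line, age and sex of host, doses and times the labels do not give. There were 2 libraries after PBS, 3 after an inhibitor of the kinases CDK4 and CDK6 (CDK4/6i, titled Abmea), 2 after an antibody against PD-1, the checkpoint receptor of T cells, and 3 after both agents, called the combination. The treatment text of combination replicates 2 and 3 numbers the antibody PD2 and PD3, so their group was taken from the sample titles. Nothing beyond the word mice ties the replicates to separate animals, so a p-value here measures the spread between these samples.

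A developing T cell joins a V segment to short joining segments (and, in beta and delta chains, a diversity segment) and places it before a constant segment, and the resulting chain pairs with a second kind of chain to form the receptor. Most T cells carry an alpha and a beta chain, and a minority a gamma and a delta chain. The V segment that a cell uses is fixed for it and its progeny, so the V reads of a tissue add up over all the T cells in it, and a clone that has grown large raises its own V gene. In a bulk library, fewer T cells and less receptor RNA per T cell cannot be told apart.

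Reference sequences are shown for the genes on which the results turn, from GENCODE M21 transcripts on GRCm38. The first set holds the last 60 bases of the 3 leading V segments, just before the point of joining, and the capitals mark the codon of the cysteine that opens the variable junction, found as TGT with 1 codon between it and a tyrosine codon. Trgv2 lies at chr13:19336573-19337167 on the minus strand, Trbv16 at chr6:41151740-41152230 and Trbv29 at chr6:41271394-41271881, both on the plus strand.
Trgv2: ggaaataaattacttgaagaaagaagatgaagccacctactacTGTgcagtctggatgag
Trbv16: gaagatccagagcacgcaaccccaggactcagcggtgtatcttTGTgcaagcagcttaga
Trbv29: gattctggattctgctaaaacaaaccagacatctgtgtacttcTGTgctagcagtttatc

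The second set shows how far reads can tell alpha copies apart, with capitals where the 3 differ. The mouse alpha locus holds stretches that were copied, whose genes carry d or n in their names. Trav6n-7 and Trav6d-7 are the same over all 358 annotated bases, and Trav6-7-dv9 differs from them at 6, of which 4 fall in the 90 bases shown.
Trav6n-7: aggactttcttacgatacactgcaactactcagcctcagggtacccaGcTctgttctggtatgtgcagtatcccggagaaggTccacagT
Trav6d-7: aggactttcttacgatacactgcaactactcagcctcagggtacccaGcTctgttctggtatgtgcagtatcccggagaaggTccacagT
Trav6-7-dv9: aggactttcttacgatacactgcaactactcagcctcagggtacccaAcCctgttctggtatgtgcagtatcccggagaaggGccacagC

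The third set is the closest family among the beta genes, the last 90 bases of the Trbv13 genes, with capitals where the 3 differ. Trbv13-1 and Trbv13-2 differ at 15 of these 90 bases, Trbv13-1 and Trbv13-3 at 19, and Trbv13-2 and Trbv13-3 at 10.
Trbv13-1: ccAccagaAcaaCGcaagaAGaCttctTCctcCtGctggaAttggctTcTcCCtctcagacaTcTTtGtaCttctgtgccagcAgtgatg
Trbv13-2: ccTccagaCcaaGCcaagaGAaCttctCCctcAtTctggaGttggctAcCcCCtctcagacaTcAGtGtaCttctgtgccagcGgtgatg
Trbv13-3: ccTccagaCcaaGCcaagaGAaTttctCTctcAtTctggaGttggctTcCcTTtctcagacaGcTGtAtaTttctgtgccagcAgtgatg

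Over whole V segments, 49 of the 102 Trav genes had another Trav member at least 98% identical, and these 49 held 60.1% of the Trav reads. Of them, 26 had a copy without any difference. No Trbv or Trdv gene had a member of its own chain at least 95% identical. Reads within identical pairs were nevertheless split unequally, with 140 reads on Trav6n-7 against 16 on Trav6d-7, 96 on Trav6d-6 against 14 on Trav6-6, and 88 on Trav4d-3 against 15 on Trav4n-3. The sources used here do not say how such reads were placed. The level of a single Trav gene is therefore uncertain, and that of a single Trbv gene less so.

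Library totals ran from 25132208 to 36260856 reads, of which V genes took 48 to 1263. The 7 markers of tumour epithelium and mesothelium were present in every group, at a summed 256.5 to 421.5 RPKM (reads per kilobase of gene length, per 1000000 library reads). The libraries CDK4/6i replicates 1 and 2 and combination replicate 1 stood apart in skeletal muscle: the 12 muscle markers, all in the table, took 9.42%, 8.49% and 9.56% of their reads and 0.00147% to 1.45% of the reads of the other 7 libraries. The 9 markers of exocrine pancreas took 5.22% and 2.05% of the antibody libraries and at most 0.835% of any other.

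The summed V level was higher in 4 of the 5 antibody-treated libraries than in any of the 5 others. It was 6.37 and 9.23 V reads per 1000000 library reads (RPM) in PBS replicates 1 and 2, and 1.78, 3.89 and 12.1 in CDK4/6i replicates 1 to 3. With the antibody it was 30.1 and 15.7, and in combination replicates 1 to 3 it was 5.78, 30.6 and 34.8. Combination replicate 1 lay below both PBS libraries, so the groups overlap except for the antibody alone against PBS and against CDK4/6i. Group means were 7.80 ± 2.0 in PBS (SD, n = 2), 5.91 ± 5.4 with CDK4/6i (SD, n = 3), 22.9 ± 10 with the antibody (SD, n = 2) and 23.7 ± 16 in the combination (SD, n = 3). The ratio to the PBS mean was 0.758 for CDK4/6i, 2.94 for the antibody and 3.05 for the combination. No p-value is given for this sum, because its members were chosen with earlier results of these data known.

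The exact 95% Clopper-Pearson interval of the level was 28.2 to 32.1 RPM in antibody replicate 1 and 5.42 to 7.43 in PBS replicate 1. It was 1.31 to 2.35 in CDK4/6i replicate 1, the lowest library. Every interval given here covers only the error of counting, because reads copied by PCR are no independent molecules. Of the 498 V values of 1 to 10 reads, 383 (76.9%) were even numbers, as were 72.3% of 64456 such values of other genes. Low counts thus come largely in steps of 2, and an interval over read pairs is wider than one over reads.

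**Figure D1:**
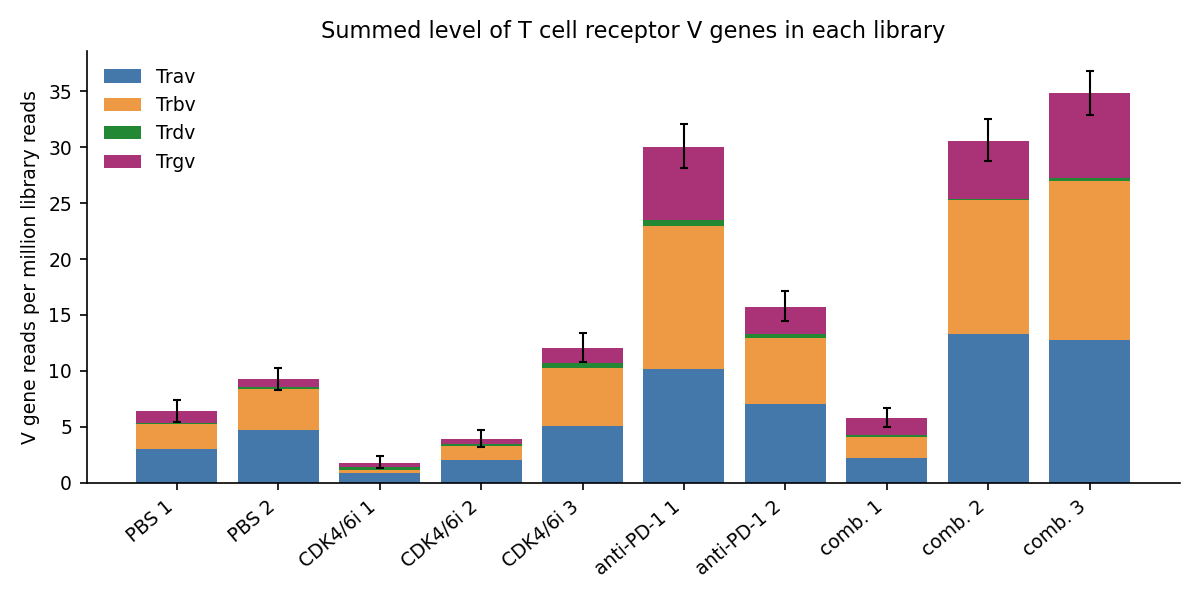
V reads per 1000000 library reads (y axis) in each of the 10 libraries (x axis), stacked by Trav, Trbv, Trdv and Trgv; the error bar is the exact 95% interval of the total. Antibody replicates 1 and 2 reach 30.1 and 15.7 and combination replicates 2 and 3 reach 30.6 and 34.8, while combination replicate 1 stands at 5.78 among the libraries without antibody.

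The 3 muscle-rich libraries were the 3 lowest in V level. Counted per 1000000 reads outside the muscle, pancreas, liver and adipocyte markers, the level of CDK4/6i replicates 1 and 2 was 1.96 and 4.25 and that of combination replicate 1 was 6.39, and the ratios to PBS were 0.770, 3.03 and 3.05 for CDK4/6i, antibody and combination. Without the 3 libraries, CDK4/6i (then replicate 3 alone) stood at 1.55 times PBS and the combination at 4.20 times. The part of the neighbouring tissue beyond this scaling was not tested.

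Per read of the receptor's constant genes, the antibody-treated groups stood near PBS. The 8 constant genes (Trac, Trbc1, Trbc2, Trdc and Tcrg-C1 to Tcrg-C4), which encode the part of the chain that anchors it in the membrane, held 101 to 1742 reads a library. There were 0.847 and 0.736 V reads for each constant read in PBS, 0.940 and 0.882 with the antibody, and 0.770, 0.843 and 0.725 in the combination. CDK4/6i replicate 3 stood at 0.883, and CDK4/6i replicates 1 and 2 at 0.475 and 0.447, below all 8 others. On this scale the ratio to PBS was 1.15 for the antibody and 0.985 for the combination, against 2.94 and 3.05 per library read. Trac, the single alpha constant gene, was at 3.11 and 5.24 RPKM in PBS, 2.14, 4.67 and 6.65 with CDK4/6i, 12 and 8.81 with the antibody, and 4.34, 18.0 and 21.3 in the combination. Its antibody-treated and antibody-free libraries overlap through combination replicate 1. Trbc1 and Trbc2, the pair of beta constant genes, ran from 0.593 to 3.0 and from 0.909 to 4.17 RPKM without antibody, and from 1.26 to 10.8 and from 2.05 to 11.4 with it.

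The summed level of other T cell genes was likewise lowest in CDK4/6i replicates 1 and 2 and highest in combination replicates 2 and 3. The list of 16 fixed markers includes the signalling chains of the receptor (Cd3d, Cd3e, Cd3g, Cd247), the co-receptors Cd4, Cd8a and Cd8b1, and the kinases Lck and Zap70, which relay the signal. Its summed level was 22.3 and 32.3 RPKM in PBS, 10.3, 15.5 and 41.3 with CDK4/6i, 79.6 and 52.5 with the antibody, and 23.6, 108 and 124 in the combination. For the averaged antibody effect (the mean of antibody and combination minus the mean of PBS and CDK4/6i), none of the 15 markers tested passed, 13 had an unadjusted p under 0.05, beside 10.2% of all genes tested, and the median log2 fold change was 1.28, beside −0.013 over all genes tested. For the averaged inhibitor effect 0 of 15 passed, with a median of −0.083 beside −0.047.
Summed markers of other lymphocytes moved with these levels as well. The 6 NK cell markers, none of them at 0 in any group, summed to 0.972 to 1.47 RPKM in PBS, 0.585 to 1.69 with CDK4/6i, 2.81 to 5.53 with the antibody and 0.873 to 9.03 in the combination. The NK list was split by gene. Klrb1c averaged 0.079 RPKM in PBS, 0.057 with CDK4/6i, 0.063 with the antibody and 0.048 in the combination. Ncr1 averaged 0.162, 0.046, 0.143 and 0.190 in the same order. The means of Klrd1, Klre1, Klra8 and Eomes were higher in both antibody-treated groups than in the other groups. Ncr1, Klrb1c and Klra8 had no reads in combination replicate 1. The 6 B cell markers summed to 5.57 to 8.74, 0.780 to 9.80, 9.23 to 15.9 and 2.13 to 25.5 RPKM in the same order. Their part in the V levels was not tested. Of the genes of receptor assembly in the thymus, Rag1 and Rag2 were not in the table. The chain Ptcra had 2 reads each in PBS replicates 1 and 2 and CDK4/6i replicate 2, and 0 elsewhere. So few reads show no difference between groups. The polymerase Dntt was at 0.028 to 0.217 RPKM where it had reads.

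At the level of single genes, 29 of the 131 V genes (13 Trav, 14 Trbv, 1 Trdv and 1 Trgv) reached 0.5 RPKM in at least 2 libraries and were tested with limma among 19368 genes. None passed an adjusted p of 0.05 in any of 7 contrasts, and neither did any other gene (0% called in each contrast). Among the 29, an unadjusted p under 0.05 was reached by 0 genes in CDK4/6i compared with PBS, and by 4 and 5 when antibody and combination were each compared with PBS. It was reached by 0 between combination and antibody, by 8 between combination and CDK4/6i, by 10 for the averaged antibody effect and by 0 for the averaged inhibitor effect. Of all 19368 genes, 5.35%, 8.65%, 3.54%, 5.55%, 8.03%, 10.2% and 4.91% reached it in the same order. With voom on recovered reads, 20 V genes were tested among 21143 genes, 0 passed, and the unadjusted numbers were 1, 1, 2, 0, 4, 4 and 0 in the same order. The share over all genes is not given for voom, so its numbers have no background beside them. A V gene present only where T cells were many passed the expression limit because of those libraries, so these numbers describe the genes tested and support nothing about the others.

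Trgv2, a gamma V gene whose neighbours on the chromosome are the joining segment Trgj2 and the constant gene Tcrg-C2, had the highest level of all V genes, with 895 of the 4923 V reads. It stood at 2.11 and 1.41 RPKM in PBS, at 0.829, 0.970 and 2.69 with CDK4/6i, at 13.3 and 5.0 with the antibody, and at 3.03, 10.7 and 15.4 in the combination. Every library with antibody was above every library without, the closest being combination replicate 1 at 3.03 and CDK4/6i replicate 3 at 2.69. The log2 fold change, on the scale of log2(RPKM + 0.5), was 2.09 (SE 0.48, limma adjusted p = 0.291) for the averaged antibody effect and −0.15 (SE 0.48, limma adjusted p = 0.977) for the averaged inhibitor effect. Without combination replicate 1, Trgv2 and Trbv12-1 passed for the averaged antibody effect, with 0.0154 as the smaller limma adjusted p, among 108 genes called of 19212 tested. Combination replicate 1 is the only antibody-treated library without Trbv12-1 reads, and that gene had none without antibody, so its call rests on libraries that also let it pass the expression limit.
The share of Trgv2 among all V reads was 16.2% and 7.5% in PBS, 22.9%, 12.2% and 10.95% with CDK4/6i, 21.7% and 15.6% with the antibody, and 25.7%, 17.1% and 21.7% in the combination. On this scale the groups overlap.

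Tcrg-C2, on the same strand as Trgv2, was at 0.609 and 1.33 RPKM in PBS, 0.364, 0.608 and 1.29 with CDK4/6i, 5.21 and 2.11 with the antibody and 0.777, 4.98 and 7.42 in the combination. The averaged antibody effect on it was 1.56 (SE 0.53, limma adjusted p = 0.421). Of the reads on the 4 gamma constant genes, Tcrg-C2 took from 38.9% in PBS replicate 1, with 36 such reads, to 81.8% in CDK4/6i replicate 1, with 11. Trgj2 had 1 and 6 reads in PBS, 1, 2 and 4 with CDK4/6i, 17 and 13 with the antibody and 3, 11 and 30 in the combination.
Trgv2 likewise took 67.9% to 100% of the reads on the 6 gamma V genes of the table. The next was Tcrg-V7, a segment known from gut epithelial T cells, with 31 reads in antibody replicate 1 and 64 in combination replicate 3, at most 4 in any other library. The delta constant gene Trdc, which cells with a gamma-delta receptor need, did not follow Trgv2 in its few reads. It was highest in CDK4/6i replicate 3, at 0.270 RPKM (30 reads), and between 0.026 and 0.074 in the other 9 libraries (3 to 9 reads). Of the fixed gamma-delta markers in the table (Trdc, Sox13, Blk, Il17a, Tcrg-C1, Tcrg-C2 and Tcrg-C4), 5 were tested. For the averaged antibody effect 4 were higher and 1 lower, and none passed. Their median log2 fold change was 0.454, beside −0.013 over all genes tested. Among the 4 delta V genes, with 81 reads in all, Trdv4 had the most, at 0.179 and 0.130 RPKM in PBS, 0.50, 0 and 0.626 with CDK4/6i, 1.29 and 0.461 with the antibody and 0.304, 0.067 and 0.497 in the combination. Trdv5, Trdv1 and Trdv2-2 had 11, 7 and 7 reads over all libraries.
Il17a, a cytokine of a subset of gamma-delta T cells, had reads in CDK4/6i replicate 3 alone, at 0.059 RPKM. The labels do not say whether the counting used strand, so reads of Trgv2 and of a transcript on the opposite strand could not be told apart.

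**Figure D2:**
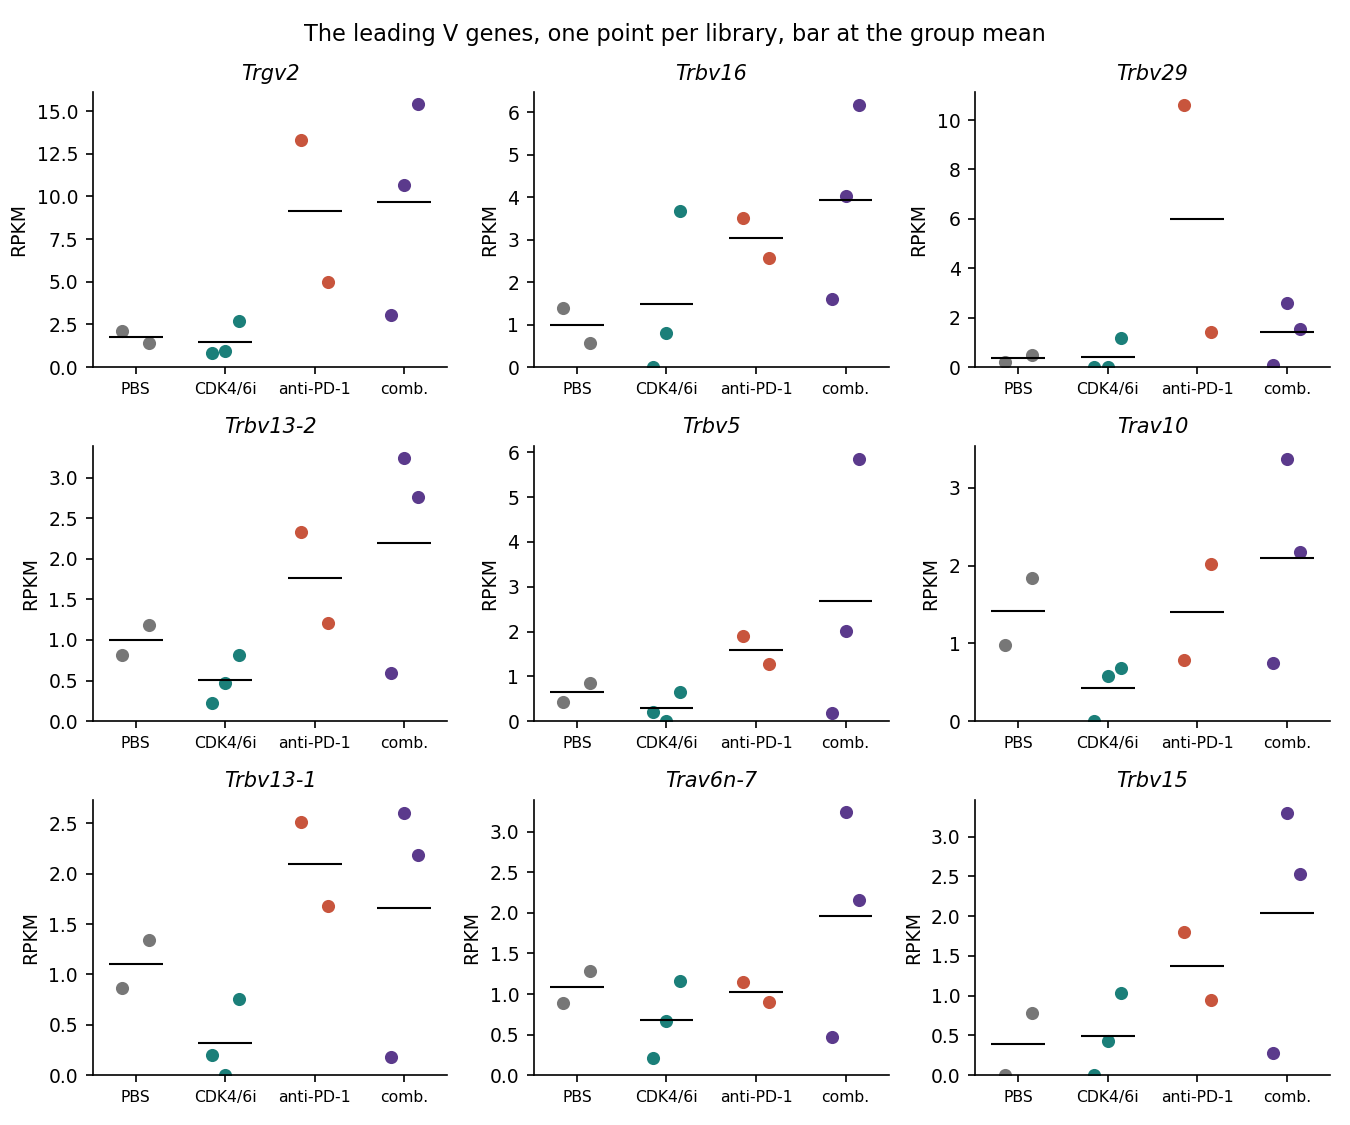
Level in RPKM (y axis) of 9 leading V genes in the 4 groups (x axis), 1 point per library and a bar at the group mean. Trgv2 stands above 3 RPKM in every library with antibody and below it in every library without, while for Trbv29 a single antibody library at 10.6 RPKM sets the mean of its group.

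Beta V genes were the other leading members. Trbv16 was at 1.40 and 0.580 RPKM in PBS, 0, 0.798 and 3.67 with CDK4/6i, 3.51 and 2.57 with the antibody and 1.61, 4.04 and 6.17 in the combination. Both antibody libraries and all 3 combination libraries were above both PBS libraries, while the CDK4/6i libraries spanned all of these but the highest 2. It was the beta gene with most reads in 7 of the 10 libraries. Its share of the Trbv reads ran from 6.25% (95% interval 2.74% to 11.9%) in PBS replicate 2 to 33.3% (21.4% to 47.1%) in combination replicate 1, leaving aside CDK4/6i replicate 1, where 0 of 8 Trbv reads allows a share of up to 37.5%.

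Trbv29 was carried by a single library. It took 118 of the 402 Trbv reads of antibody replicate 1, or 29.4% (95% interval 24.9% to 34.1%), and counted as read pairs 59 of 206, or 28.6% (22.6% to 35.3%). In the other libraries its share was 3.51% and 4.69% in PBS, 8.05% in CDK4/6i replicate 3, 8.37% in antibody replicate 2 and 1.75%, 7.71% and 3.88% in the combination. In CDK4/6i replicates 1 and 2 it had 0 of 8 and 0 of 32 Trbv reads, which allows up to 37.5% and 9.38% at 3 reads; the exact intervals reach 36.9% and 10.9%, and 60.2% and 19.5% over read pairs. The interval of antibody replicate 1 lies above that of every other library except CDK4/6i replicate 1. In RPKM it stood at 10.6 there and at 1.41 in the other antibody library, and between antibody and PBS the log2 fold change was 2.44 (SE 1.0, limma adjusted p = 0.564).

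Trbv5 had its highest level in combination replicate 3, with 78 of 515 Trbv reads, or 15.1% (95% interval 12.2% to 18.5%). It took 7.02% and 8.59% in PBS, 5.47% and 7.88% after antibody alone, and 3.51% and 6.22% in combination replicates 1 and 2. In CDK4/6i replicates 2 and 3 it took 0 of 32 and 7 of 149, and in replicate 1, 2 of 8. The interval of combination replicate 3 overlaps those of both PBS libraries (1.95% to 17% and 4.37% to 14.9%), antibody replicate 2 (4.57% to 12.5%) and CDK4/6i replicate 1, and lies above the other 5. Over read pairs the interval of combination replicate 3 is 10.8% to 19.8%. It then lies above only antibody replicate 1 (2.70% to 9.35%) and combination replicate 2 (3.39% to 10.5%). Its RPKM was 5.85 in combination replicate 3 and at most 2.02 in any other library. Among the alpha genes, Trav5-1 had 40 reads in combination replicate 3, the most of any Trav gene there at 8.62% (6.23% to 11.6%), and at most 4 in any other library. Trav5-1 and the comparison of Trbv5 between libraries were singled out after their values were seen.

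The Trbv13 genes, whose products are frequent among mouse T cells and among natural killer T cells, were of like level to each other. Trbv13-1 averaged 1.11 ± 0.33 RPKM in PBS, 0.321 ± 0.39 with CDK4/6i, 2.10 ± 0.59 with the antibody and 1.66 ± 1.3 in the combination. Trbv13-2 averaged 1.0 ± 0.26, 0.501 ± 0.30, 1.77 ± 0.80 and 2.20 ± 1.4, and Trbv13-3 averaged 1.08 ± 0.87, 0.555 ± 0.77, 1.18 ± 0.45 and 1.51 ± 0.85 in the same order (SD, n = 2, 3, 2 and 3). Summed, a choice made after the values were seen, they took 33.3% (95% interval 21.4% to 47.1%) and 39.8% (31.3% to 48.9%) of Trbv reads in PBS. They took 17.4% and 22.2% with the antibody, 24.6%, 21.9% and 17.7% in the combination, and 18.8% and 20.1% in CDK4/6i replicates 2 and 3. Both PBS shares were above these 7, and CDK4/6i replicate 1, with 4 of 8 reads, could not be placed. The intervals of both PBS libraries overlap those of treated ones, that of PBS replicate 2 with CDK4/6i replicate 2 (7.21% to 36.4%) and combination replicate 1 (14.1% to 37.8%). Trbv15 was at 0 and 0.779 RPKM in PBS, 0, 0.429 and 1.03 with CDK4/6i, 1.80 and 0.947 with the antibody and 0.274, 3.30 and 2.53 in the combination, and Trbv1 had at most 12 reads in a library.

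**Figure D3:**
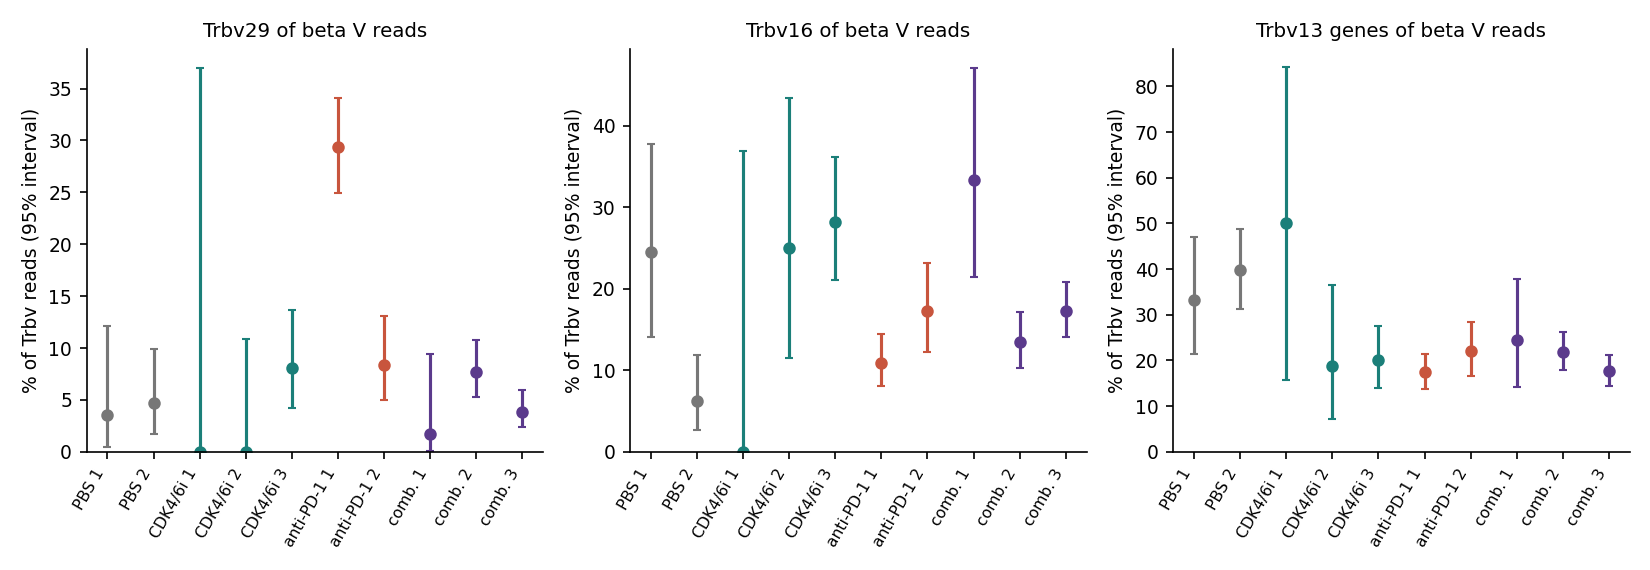
Share of Trbv reads (y axis, percent, with exact 95% intervals) taken by Trbv29, Trbv16 and the 3 Trbv13 genes together in each library (x axis). Trbv29 reaches 29.4% in antibody replicate 1 and at most 8.37% elsewhere, and the Trbv13 genes hold 33.3% and 39.8% in PBS.

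Trbv12-1 and Trbv14 were without reads in all 5 libraries that had no antibody. Trbv12-1 had 11 and 6 reads with the antibody and 0, 25 and 26 in the combination. Trbv14 had 9 and 7 reads with the antibody and 6, 11 and 1 in the combination. Against 3 reads over the 140809899 reads of the antibody-free libraries, Trbv12-1 was at least 19.3-fold and Trbv14 at least 9.66-fold higher per library read in the 5 antibody-treated libraries together, bounds for counting error only. Counted as read pairs, against 3 pairs, the bounds were 9.94-fold and 5.40-fold. All these bounds come from the same reads that set both genes apart. They leave out the spread between libraries and describe these libraries only. Both genes passed the expression limit through the antibody-treated libraries alone, so no fitted fold change is given for them. The call of Trbv12-1 without combination replicate 1 and the low p of Trbv14 between combination and PBS carry the same limit. Trbv12-2, of the same subgroup as Trbv12-1, had reads in every library, 2 to 37 of them.
In all, 35 V genes had no reads in the antibody-free libraries and 6 had none in the antibody-treated ones, which held 973 and 3950 V reads. Of the 35, Trbv12-1 had the most reads in all, 68, and of the 6 none had more than 2. The antibody-free libraries held fewer V reads, so a gene with few reads in all is more easily missed there. Of the 131 V genes, 4 (3.05%) had every antibody-treated library above every antibody-free one (Trgv2, Trav7n-6, Trbv14 and Trav7-3), against 0.567% of all 32830 genes of the table.

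Alpha V genes held 1994 V reads spread over 102 genes, and no single one passed 17.4% of the Trav reads of a library. The leading ones by mean level were Trav10 at 1.32, Trav6n-7 at 1.21, Trav6d-6 at 0.854, Trav4d-3 at 0.802, Trav10n at 0.625 and Trav4-4-dv10 at 0.476 RPKM over the 10 libraries. Trav10 stood at 0.980 and 1.85 RPKM in PBS, 0, 0.587 and 0.685 with CDK4/6i, 0.781 and 2.02 with the antibody and 0.749, 3.37 and 2.17 in the combination. All CDK4/6i libraries were below both PBS libraries, and the log2 fold change, −1.11 (SE 0.57), did not pass (limma adjusted p = 0.844).
Between CDK4/6i and PBS the lowest unadjusted p belonged to Trav7-4 (log2 fold change −0.89, SE 0.39), Trav10 and Trbv13-1 (−1.06, SE 0.65). Between combination and antibody it belonged to Trav10n (−1.32, SE 0.60), Trav8-2 (0.68, SE 0.37) and Trdv4 (−0.77, SE 0.44). Between combination and CDK4/6i it belonged to Trgv2 (2.22, SE 0.61), Trav7-4 (1.01, SE 0.35) and Trav10 (1.44, SE 0.51). Between combination and PBS it belonged to Trgv2 (1.94, SE 0.68), Trbv14 and Trav4d-4 (1.17, SE 0.47), and none of these passed the adjustment. Trbv14 and Trav4d-4 had no reads in PBS, so the fold change of Trav4d-4 rests on the 0.5 added to the RPKM.

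The V segments of the invariant T cell subsets were near the limit of detection. Trav11, the alpha segment of natural killer T cells, had 2 reads in CDK4/6i replicate 3, and its identical copy Trav11d had 2 in antibody replicate 2 and 2 in combination replicate 2. Trav11n, of the same subgroup, had 4 reads in PBS replicate 1, 4 in CDK4/6i replicate 1 and 2 in combination replicate 2. Their partner joining segment Traj18 had at most 3 reads in a library. Trav1, the alpha segment of mucosal-associated invariant T cells, had 3 reads in antibody replicate 2 and 2 in combination replicate 1, with 0 in the other 8. A library's limit for 0 reads is 3 reads, or 0.0827 to 0.119 RPM, so differences between groups in these segments were not detectable at this depth.

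Along the locus, the Trav genes lie 228 to 1727 kb before the Traj cluster on chromosome 14. Split by order into 3 parts of 34 genes, the part farthest from Traj held 28.8% of Trav reads, the middle 33.9% and the nearest 37.3%. The 27 genes named with d held 23.8%, the 28 named with n 27.8% and the other 47 held 48.4%. By library, genes named with d held 12% and 14.8% of Trav reads in PBS, on 9 and 24 reads. They held 21.5% to 31.97% in the other 8 libraries, on as few as 7 reads in CDK4/6i replicate 1. No interval was computed for these shares, and the comparison was made after the values were seen. Since many copies share their sequence, the split between d, n and unlettered genes carries the uncertainty of where reads were placed.

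**Figure D4:**
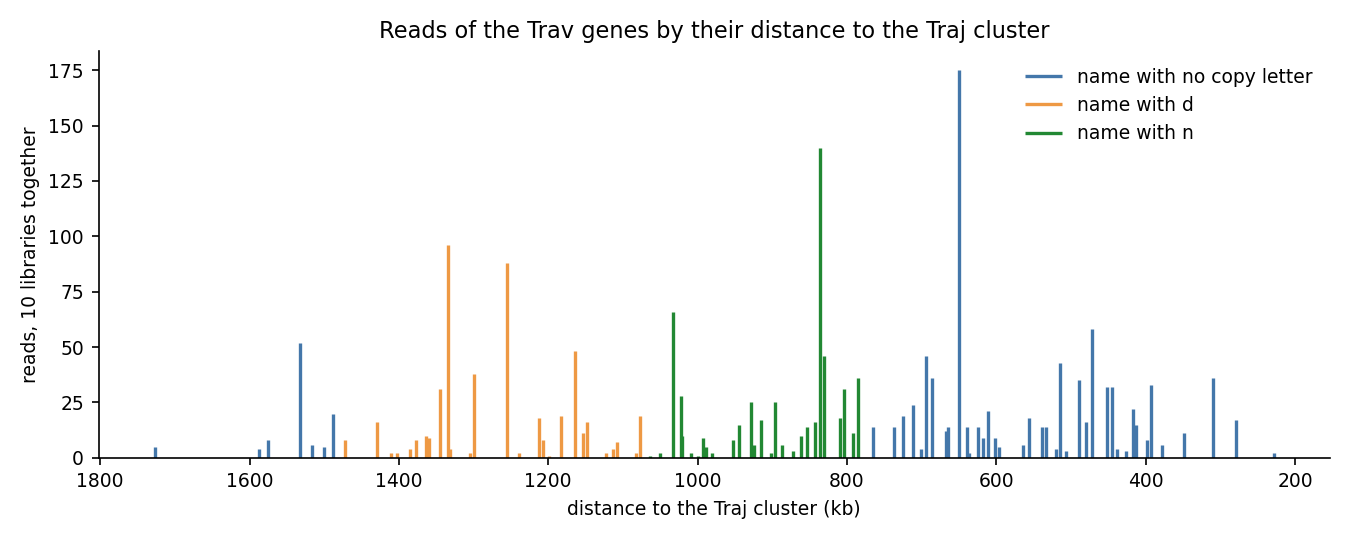
Reads of each Trav gene, all 10 libraries together (y axis), by its distance to the Traj cluster in kb (x axis, falling to the right), coloured by the copy letter in the name. Reads lie along the whole locus, with Trav10 and Trav6n-7 (140 reads) the tallest lines.

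The number of V genes detected followed the number of V reads. With at least 1 read counting as detected, it was 40 and 55 in PBS, 16, 34 and 62 with CDK4/6i, 85 and 80 with the antibody and 40, 98 and 90 in the combination. The ratio of group means to PBS was 0.786, 1.74 and 1.6. Thinning each library to the lowest total, 25132208 reads, changed these little (0.796, 1.72 and 1.58). After thinning to 48 V reads, the number in CDK4/6i replicate 1, the groups overlapped: 24.8 and 27.1 genes were expected in PBS, 16, 25.9 and 27.9 with CDK4/6i, 24.8 and 28.7 with the antibody and 22.9, 28.1 and 25.0 in the combination. At 160 V reads, which leaves out CDK4/6i replicates 1 and 2, the expected numbers were 40 and 47.4 in PBS, 51.1 in CDK4/6i replicate 3, 49.2 and 56.9 with the antibody, and 39.5, 55.9 and 47.6 in the combination. On this scale the antibody libraries and CDK4/6i replicate 3 were above both PBS libraries, with 47.4 and 49.2 next to each other. The combination overlapped PBS, and PBS replicate 1 itself was not thinned. Counted as read pairs and thinned to 26 pairs, the groups overlapped, with 18.3 and 18.9 genes in PBS and 16.5 and 19.0 with the antibody. There were 16, 20.2 and 19.0 with CDK4/6i and 16.6, 18.5 and 16.8 in the combination. Of the 131 genes, 4 were detected in every library, 67 in at least 5 and 19 in a single one.

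Evenness overlapped between all groups. Shannon evenness over the 131 genes, where 1 means equal reads on every gene, was 0.676 and 0.742 in PBS, 0.517, 0.677 and 0.751 with CDK4/6i, 0.712 and 0.777 with the antibody and 0.628, 0.780 and 0.721 in the combination. The ratio of means to PBS was 0.914, 1.05 and 1.0. The Simpson effective number, which weighs the leading genes more, was 19.9 and 30.1 genes in PBS, 11.8, 26.9 and 25.6 with CDK4/6i, 13.7 and 24.0 with the antibody and 11.3, 21.7 and 14.97 in the combination, again overlapping. Its means stood at 0.753 times PBS for the antibody and 0.640 times for the combination. Trgv2 was the gene with most reads in 8 of the 10 libraries. Without it, the Shannon evenness of the 2 antibody libraries was 0.774 and 0.817. That of the combination was 0.690, 0.829 and 0.785, against 0.700 and 0.745 in PBS. These values were not thinned to equal V reads, and the part of read number in them was not tested. With Trgv2 kept and each library thinned to 48 V reads, Shannon evenness spanned 0.606 to 0.640 for PBS. The span was 0.582 to 0.639 for the antibody and 0.558 to 0.631 for the combination, so neither exceeded the PBS libraries at that depth.
Within chains, the Simpson number of the Trav genes was 19.8 and 18.3 in PBS, 11.5, 21.6 and 29.97 with CDK4/6i, 32.7 and 33.7 with the antibody and 24.3, 31.9 and 26.8 in the combination. The 5 antibody-treated libraries were above both PBS libraries, as were CDK4/6i replicates 2 and 3, and replicate 3 lay among the antibody-treated ones. These numbers rest on 23 to 464 Trav reads a library, counted as reads and not as pairs. They were not thinned and carry the uncertainty between alpha copies. The part of read number in them was not tested. For the Trbv genes it was 9.23 and 11.6 in PBS, 7.0, 10.1 and 8.85 with CDK4/6i, 8.06 and 12.2 with the antibody and 6.49, 13.8 and 11.2 in the combination, with no order by group.

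**Figure D5:**
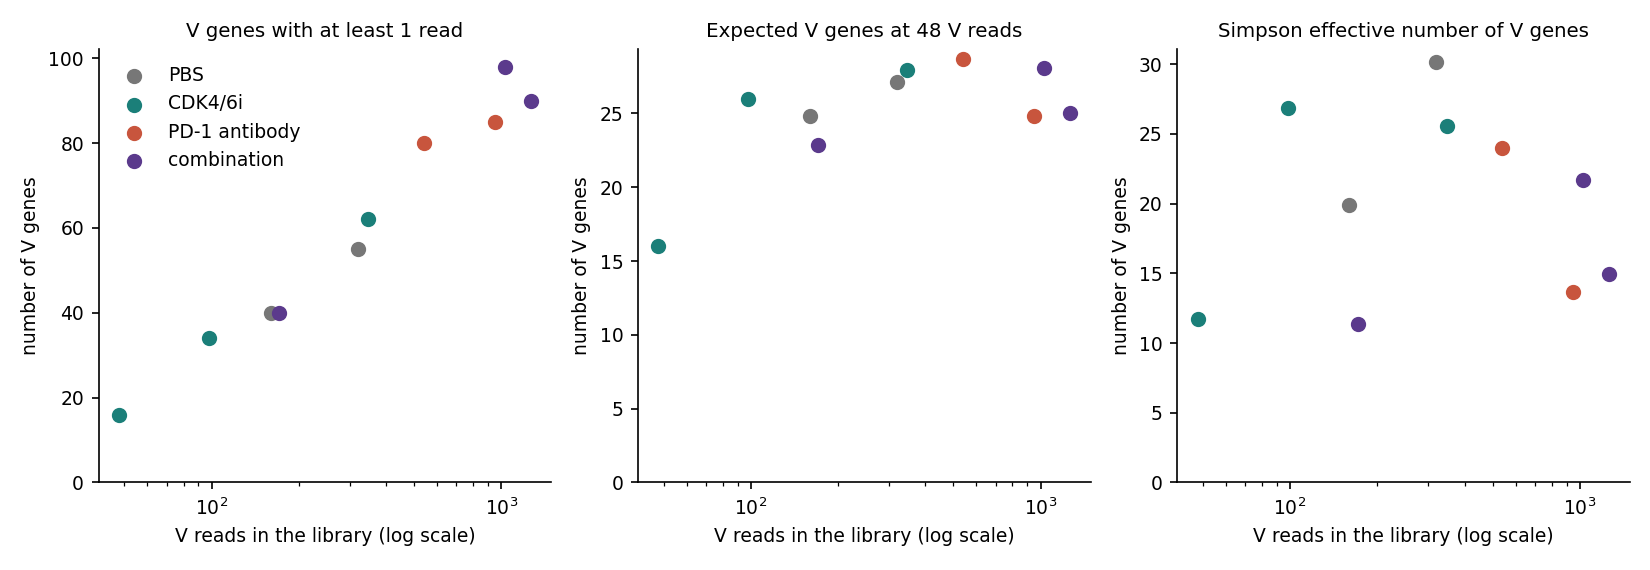
Each point is a library, placed by its V reads (x axis, log scale). The y axes give V genes with at least 1 read, the number expected after thinning to 48 V reads, and the Simpson effective number. The first climbs from 16 to 98 genes. The second stays between 22.9 and 28.7 in all libraries but CDK4/6i replicate 1, which is not thinned and has 16. Thinned as read pairs, which is not drawn, that library has 16 beside 16.5 in antibody replicate 1 and 16.6 in combination replicate 1.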

How the data were processed

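The deposited RPKM values, reads per kilobase of gene length per 1000000 reads as computed by the authors, were used as they stand. Per the labels' protocols, RNA from tumour tissue was made into mRNA libraries read as pairs, with 2 library kits named, 1 of them stranded; per the submitters' processing notes the build was GRCm38 (mm10). The sources used here name no aligner, counting program or annotation. The table spells 2 group names unlike the titles (Abema for Abmea, Combi for Com). Each RPKM value times gene length was a whole multiple of 1 read, within 1e-06, for 100% of values, which gave reads and totals. Replicates differed by far more than counting noise (chi-square per gene 22.0 to 483).

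Genes at 0.5 RPKM in 2 samples were tested with limma (version 3.58.1, R 4.3.3, trend and robust moderation) on log2(RPKM + 0.5), 4 group means over 10 samples, Benjamini-Hochberg adjustment over all genes in each contrast. The summed level, number detected and evenness have no test; thinned numbers are hypergeometric expectations. The test was checked on simulated counts with a spread set beforehand, and the thinning on draws of single reads. No change was planted in genes with few reads, and neither the spread of these replicates nor reads in pairs were simulated. Members and lists were chosen with earlier results of these data known. V genes were named by level (the 6 highest of each chain), lowest p (3 a contrast), a share of at least 20% of their locus, or a known role.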

Additional observations from a re-analysis of the deposited data

How the results depend on the processing

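Of 236 values recomputed under alternatives, 218 stayed within the spread between replicates or, for genes called, at the main count of 0. The latter were 128 of the 218. The spread was the larger SD of PBS and the treated group, which for the summed level of the combination exceeded the PBS mean. Staying within it is therefore a weak check. No V gene was called in any contrast with a pseudocount of 0.1 or 1, a filter at 1 RPKM, median-ratio scaling (factors 0.835 to 1.15), voom, without the 3 muscle-rich libraries, or the replicate block (0 called in each contrast), nor with only the groups compared, which was run for the 5 contrasts between groups and not for the averaged effects. With only the groups compared, 66 of all 19368 genes were called for the antibody against PBS. Without a filter, 1 V gene was called for the antibody against PBS, among 23 genes called of 32830. For the combination against the antibody 1 was called, among 15 of 32830. Both calls were Trav8d-2, with 2 reads in each antibody library and 0 in the others. Leaving out single samples gave 0 to 2 called for the averaged antibody effect (2 without combination replicate 1) and 0 in the other contrasts; a group left with a lone sample is assumed to vary like the others. Replicate numbers did not pair the samples: deviations of same-numbered samples correlated from −0.449 to 0.620.

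Ratios to PBS follow. The summed level ranged from 0.363 to 1.02 for CDK4/6i, 2.02 to 3.86 for the antibody and 2.33 to 4.20 for the combination when 1 library was left out. Per constant read it was 1.15 for the antibody and 0.985 for the combination, and without the muscle-rich libraries 1.55 for CDK4/6i. The number detected ranged from 0.526 to 1.01, 1.5 to 2.06 and 1.37 to 1.98. For the antibody it was 2.41 with at least 5 reads, 1.03 at the lowest number of V reads, 1.30 for V subgroups, 0.957 for thinned read pairs and 1.21 at the V reads of PBS replicate 1. It was 0.931 for thinned pairs in the combination and 1.31 for CDK4/6i without the muscle-rich libraries. Evenness ranged from 0.842 to 1.01, 1.003 to 1.10 and 0.951 to 1.06, and was 0.979 for the antibody at the lowest number of V reads. As a Simpson number it was 0.753 for the antibody and 0.640 for the combination. The cause of these shifts was not tested. Thinned pairs, thinning to PBS replicate 1, leaving out the muscle-rich libraries, leaving out Trgv2 and adding the Tcrg-V genes were chosen after seeing the data. The depth, 48 to 1263 V reads, limits every value of a single gene.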
